A study of Mus musculus with 18 samples.

Results

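The transcripts examined were those of 10 genes grouped as basophil, mast cell and eosinophil genes, namely Cpa3, Fcer1a, Ms4a2, Mcpt8, Prss34, Hdc, Prg2, Epx, Alox15 and Csrp3. They were taken by symbol, and all 10 were listed among the 19780 genes of the LSK table and the 18428 genes of the CMP table. Bone marrow cells had been sorted as LSK, the lineage-negative fraction positive for Sca-1 and c-Kit in which haematopoietic stem and early progenitor cells lie, or as CMPs, the common myeloid progenitors. RNA of sorted cells was sequenced in 18 samples of female mice, with 3 samples in each group. NZBW/F1 mice, the first-generation cross of the strains NZB/OlaHsd and NZW/OlaHsd, develop lupus spontaneously and were sampled before disease at 12 weeks (F1-P) and with proteinuria at 28 to 36 weeks (F1-L). C57BL/6 mice of the same ages, 12 weeks (B6-Y) and 28 to 36 weeks (B6-O), were the controls. LSK were available from all 4 groups, and the CMP samples analysed were F1-P and F1-L only. Age and disease cannot be told apart between F1-L and F1-P, and strain and disease cannot be told apart between F1-L and B6-O. The labels do not say whether the 3 samples of a group came from separate mice, so p-values measure only the spread between these samples.

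Basophils, mast cells and eosinophils are granulocytes of allergic and antiparasitic responses. Basophils and mast cells carry the high-affinity IgE receptor, whose cross-linking releases histamine and proteases from granules, whereas eosinophil granules hold basic proteins and a peroxidase. All descend from bone marrow progenitors that express the transcription factor GATA2, and single transcripts of these lineages are known to appear already in stem and progenitor cells. Of the 10 genes, Fcer1a and Ms4a2 encode the IgE-binding alpha chain and the beta chain of the receptor. Mcpt8 and Prss34 encode serine proteases of basophils, Cpa3 a carboxypeptidase of mast cell and basophil granules, and Hdc the enzyme that makes histamine from histidine. Prg2 encodes eosinophil major basic protein, Epx eosinophil peroxidase and Alox15 a lipoxygenase of eosinophils and resident macrophages. Csrp3 encodes muscle LIM protein, which is best known from heart and skeletal muscle.

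Short stretches upstream of the transcription start are shown for 5 of the genes, because GATA2 is a known regulator of basophil and mast cell genes and Gata2 itself differed between groups of LSK. RefSeq promoters (GRCm38.p6, 250 bases before to 50 bases after the start) were matched for 8 of the 10 genes by symbol, and Prg2 and Alox15 had no entry. Each line gives the 120 bases before the start, 5′ to 3′ on the strand of the gene, and capitals mark matches to the GATA motif, whose 4 forms AGATAA and AGATAG as well as TGATAA and TGATAG were searched on both strands.
Cpa3, chr3:20242182-20242301, minus strand: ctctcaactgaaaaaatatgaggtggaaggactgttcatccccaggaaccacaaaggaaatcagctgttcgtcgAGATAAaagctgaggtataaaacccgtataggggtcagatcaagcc
Fcer1a, chr1:173227230-173227349, minus strand: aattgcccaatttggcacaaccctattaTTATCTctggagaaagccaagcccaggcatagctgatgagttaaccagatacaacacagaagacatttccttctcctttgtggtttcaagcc
Ms4a2, chr19:11623720-11623839, minus strand: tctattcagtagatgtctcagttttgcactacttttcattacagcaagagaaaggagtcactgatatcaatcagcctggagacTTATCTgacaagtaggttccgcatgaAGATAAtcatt
Prss34, chr17:25298274-25298393, plus strand: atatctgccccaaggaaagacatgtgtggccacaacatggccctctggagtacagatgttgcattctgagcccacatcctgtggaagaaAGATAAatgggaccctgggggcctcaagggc
Csrp3, second start, chr7:48843672-48843791, minus strand: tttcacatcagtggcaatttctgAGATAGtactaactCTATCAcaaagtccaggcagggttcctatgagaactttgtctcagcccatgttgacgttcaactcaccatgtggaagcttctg
Over the whole 300-base windows, 6 of the 9 windows of these 8 genes held a match, against 29.8% of all 32851 windows of the table. Hdc held its match farther upstream, and Mcpt8, Epx and the first start of Csrp3 had none. The E-box motif CANNTG, which reads the same on both strands, was present in 8 of the 9 windows and in 72.3% of all windows. These matches describe letters in a window and were not tested for factor binding.

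The values are deposited CPM of a scaled library size, with 1 read worth 0.0310 to 0.0584 CPM in LSK and 0.0392 to 0.0516 in CMPs, depending on the sample. The samples held 23772252 to 28493747 reads in LSK and 20001328 to 24761060 in CMPs. Immunoglobulin genes took 16.8% to 36.6% of reads in NZBW/F1 LSK, 0.301% to 4.76% in C57BL/6 LSK and at most 0.255% in CMPs. Among the markers of the sort, Kit was at 257 to 657 CPM in LSK and 416 to 668 in CMPs. Ly6a, the gene of Sca-1, was at 293 to 879 CPM in NZBW/F1 LSK and 35.5 to 113 in C57BL/6 LSK. It was at 1.14 to 6.70 CPM in CMPs, although the methods write the CMP gate as Sca-1-positive. Both sorts took cells negative for CD11b, Gr-1, Ter119, B220 and CD16/32, which leaves out mature neutrophils and most other mature myeloid cells, and no antibody against the IgE receptor or Siglec-F was listed. The summed CPM of 11 neutrophil markers ranged from 301 to 12373 in LSK, with the highest library of each group at 12373 in F1-L replicate 1, 1281 in F1-P replicate 3, 5441 in B6-Y replicate 2 and 10719 in B6-O replicate 3. In CMPs this sum was 315, 6453 and 8442 in F1-P and 64.2 to 431 in F1-L. Where a direction or a call changes, log2 changes are also given without the highest LSK library of each group, or without F1-P CMP replicates 2 and 3. In CMPs this leaves 1 F1-P sample, which was itself the low one of its group. In bulk RNA, fewer cells of a type and less RNA per cell cannot be told apart.

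**Figure D1:**
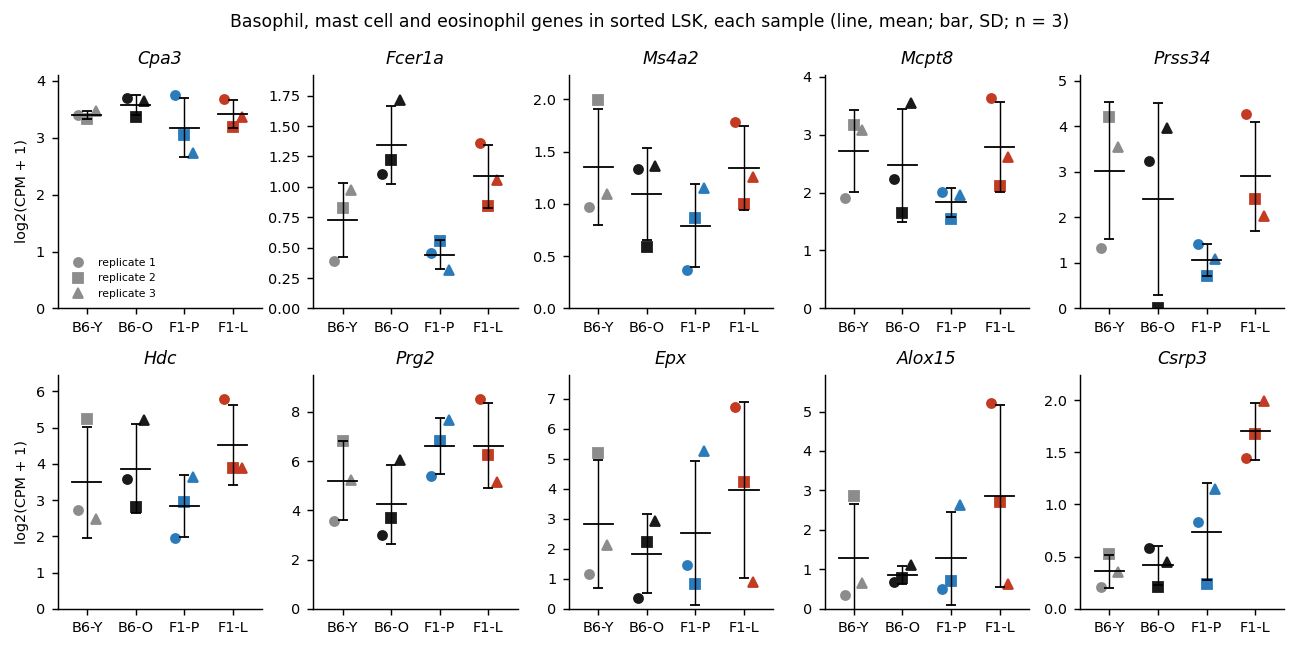
Levels of the 10 genes in LSK as log2(CPM + 1) on the vertical axis, with 1 symbol per sample, the shape giving the replicate number, and the mean and SD of each group in black (n = 3). F1-L exceeded every other group for Csrp3, at 1.72 to 2.96 CPM, whereas Cpa3 stayed between 5.64 and 12.4 CPM in all 12 samples, and Hdc, Prg2, Epx and Alox15 had single high libraries in most groups.

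Levels per kilobase of exon were compared between genes first. Prg2 had the highest mean in all 6 groups, from 33.4 ± 38.4 CPM per kb (SD, n = 3) in B6-O LSK to 188 ± 214 in F1-L LSK. Its 3 values lay wholly above those of the next gene in F1-L, F1-P and B6-O LSK, but not in B6-Y LSK or in either CMP group. In F1-L LSK the means then ran through Epx (15.1 ± 20.4), Prss34 (6.99 ± 6.90), Mcpt8 (6.61 ± 4.24), Cpa3 (6.42 ± 1.24), Alox15 (5.77 ± 7.93) and Hdc (4.26 ± 3.64 CPM per kb). Neighbours in that order overlapped over their samples. Fcer1a (1.15 ± 0.389), Csrp3 (0.858 ± 0.235) and Ms4a2 (0.572 ± 0.266 CPM per kb) were last, and all 3 samples of Fcer1a lay below all 3 of Hdc. In F1-L CMPs the lowest mean was that of Alox15 (0.166 ± 0.120 CPM per kb), and its samples lay apart from those of Ms4a2, the next gene (1.91 ± 0.750). The receptor genes were therefore measured on few reads, Fcer1a on 5 to 68 in LSK and 4 to 112 in CMPs, and Ms4a2 on 7 to 88 in LSK and 27 to 142 in CMPs.

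Differences were tested with limma on log2(CPM + 1) over all genes with at least 1 CPM in at least 3 samples of a comparison, with the Benjamini-Hochberg adjustment over all tested genes, and a call needed both an adjusted p up to 0.05 and a change of more than 1.5-fold. Fold changes on this scale understate the change of genes at low CPM. In F1-L against F1-P LSK, which asks what changed with disease and age in the lupus strain, 9 of the 10 genes were tested and 0 were called, where 0.0279% of all genes were. Of the 9, 4 had an unadjusted p below 0.05, as had 12.8% of all genes, edgeR's quasi-likelihood test on the recovered reads called 0, and edgeR's likelihood ratio test and DESeq2 called 1 each, Prss34, against 4.58% and 5.21% of all genes. In F1-L against B6-O LSK 1 of 10 tested genes was called, Csrp3, where 11.6% of all genes were, and 27.5% of all genes had an unadjusted p below 0.05. In F1-P against B6-Y LSK 0 of 7 tested genes were called, where 16.2% of all genes were, and 2 of the 7 had an unadjusted p below 0.05, a share no larger than the 31.3% of all genes. In B6-O against B6-Y LSK 0 of 8 were called, where 0.0% of all genes were, 1 had an unadjusted p below 0.05 (6.62% of all genes), and the likelihood ratio test called 0 of them and 0.785% of all genes. In F1-L against F1-P CMPs 0 of 10 were called in limma and in the quasi-likelihood test, where limma called 0.00774% of all genes, and 4 of the 10 had an unadjusted p below 0.05, as had 9.8% of all genes. The genes left untested by the filter were Fcer1a in F1-L against F1-P LSK, Fcer1a, Alox15 and Csrp3 in F1-P against B6-Y, and Alox15 and Csrp3 in B6-O against B6-Y. F1-L LSK enter 2 of these comparisons, as does each other LSK group, so the comparisons are not independent of one another.

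**Figure D2:**
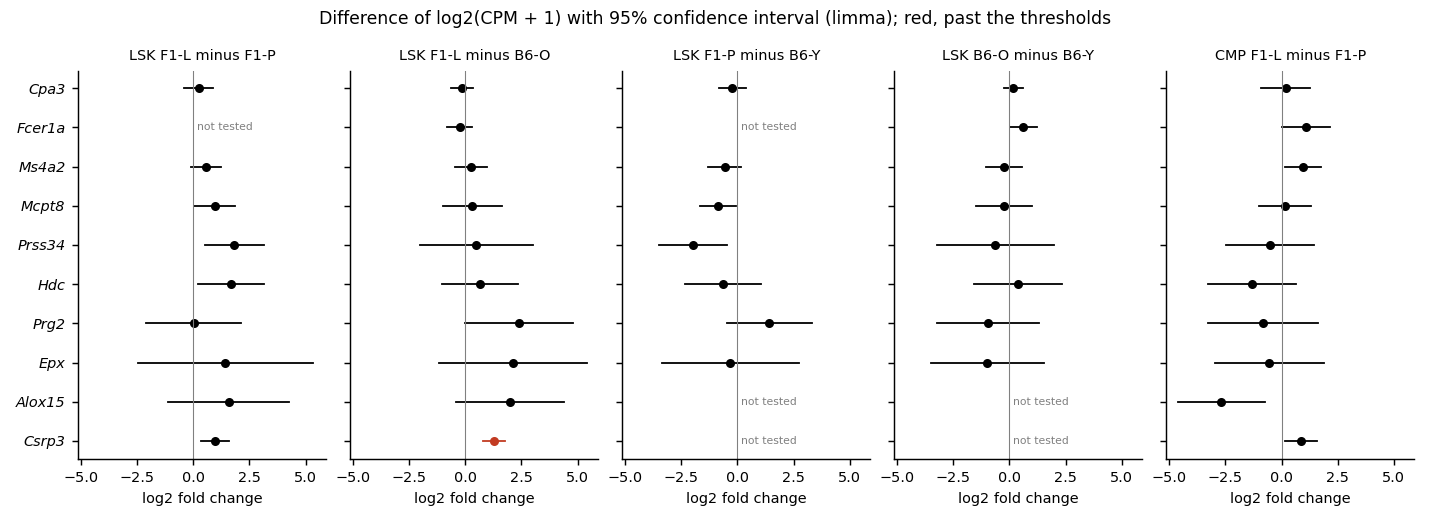
Log2 fold changes of the 10 genes in 5 comparisons (horizontal axis, difference of log2(CPM + 1)), with 95% confidence intervals from limma, red where the thresholds were passed. Csrp3 in F1-L minus B6-O LSK was the 1 gene past them, at 1.29, and the widest interval was that of Epx in F1-L minus F1-P LSK, from −2.48 to 5.35.

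Csrp3 (chromosome 7, 48830398 to 48848033, minus strand, GRCm38) was the gene whose difference was clearest. It was at 1.72, 2.19 and 2.96 CPM in F1-L LSK, 0.783, 0.175 and 1.21 in F1-P, 0.155, 0.439 and 0.275 in B6-Y, and 0.498, 0.158 and 0.368 in B6-O. All 3 F1-L samples lay above all 9 others. Csrp3 rose in F1-L against B6-O with a log2 change of 1.29 (SE 0.203, 95% confidence interval 0.81 to 1.76, adjusted p = 0.00805 in limma). The ratio of mean CPM was 6.72. All 17 alternative settings that gave a value kept this call, with adjusted p between 3.0e-06 and 0.0378. The gene passed the filter there through the F1-L samples alone, since the B6-O samples were all below 1 CPM, and without any filter its adjusted p was 0.00661. Against F1-P the log2 change was 0.96 (SE 0.271, 95% confidence interval 0.32 to 1.60, unadjusted p = 0.00928, adjusted p = 0.226 in limma), and no alternative brought the adjusted p below 0.0589. Groups without overlap were found for 4 of the 9 tested genes in this comparison, Csrp3, Mcpt8, Prss34 and Hdc, and for 17.7% of all tested genes. The same figures were 1 of 10 and 37.4% in F1-L against B6-O, 0 of 7 and 35.5% in F1-P against B6-Y, 1 of 8 (Fcer1a) and 11.3% in B6-O against B6-Y, and 2 of 10 (Alox15 and Csrp3) and 16.0% in CMPs. Fcer1a passed the filter in B6-O against B6-Y through the B6-O samples alone, and Alox15 in CMPs through the F1-P samples alone.

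In CMPs Csrp3 was at 4.42, 4.68 and 5.56 CPM in F1-P and 14.9, 6.30 and 9.40 in F1-L, again without overlap. The log2 change was 0.86 (SE 0.293, 95% confidence interval 0.15 to 1.57, adjusted p = 0.461 in limma), which did not pass. The 2 tables were normalised separately, so levels across them were set side by side as CPM over reads outside immunoglobulin genes and not tested. On that scale Csrp3 was at 0.199 to 1.41 in F1-P LSK and 4.31 to 5.75 in F1-P CMPs, and at 2.05 to 3.57 in F1-L LSK and 6.10 to 15.4 in F1-L CMPs. It was the one gene of the 10 that lay higher in every CMP sample than in every LSK sample of the same group in both F1-P and F1-L.

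The basophil proteases came next. Mcpt8 (chromosome 14, 56082166 to 56085273, minus strand) was at 11.4, 3.30 and 5.12 CPM in F1-L LSK, 3.01, 1.93 and 2.87 in F1-P, 2.73, 8.0 and 7.47 in B6-Y, and 3.70, 2.12 and 10.6 in B6-O. F1-L lay above F1-P in every sample, and F1-P was the group with the lowest mean. The log2 change of F1-L minus F1-P was 0.95 (SE 0.380, adjusted p = 0.362 in limma), and that of F1-P minus B6-Y was −0.88 (SE 0.347, adjusted p = 0.126). The second difference passed in DESeq2 (adjusted p = 0.0349, where 19.5% of all genes passed), and its adjusted p reached 0.348 over the alternatives. It also passed in limma without B6-Y replicate 1 (log2 change −1.29, adjusted p = 0.0165), where 1398 of 14380 genes were called. That replicate was the only B6-Y sample within the range of F1-P, so leaving it out separates the groups.

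Prss34 (chromosome 17, 25298394 to 25300165, plus strand) was at 18.2, 4.25 and 3.10 CPM in F1-L LSK, 1.65, 0.642 and 1.12 in F1-P, 1.52, 17.4 and 10.6 in B6-Y, and 8.43, 0 and 14.6 in B6-O. In F1-P all 3 samples were low, and in every other group the samples differed severalfold among themselves. B6-O replicate 2 had 0 reads, which allows up to 0.0947 CPM (3 reads), so the other B6-O samples were at least 89.0-fold higher, by counting error only. F1-L and F1-P did not overlap, with a log2 change of 1.83 (SE 0.560, 95% confidence interval 0.51 to 3.15, adjusted p = 0.256 in limma) and a ratio of mean CPM of 7.50. The likelihood ratio test gave an adjusted p of 0.00666 and DESeq2 0.00126 for this difference, and the largest adjusted p over the alternatives was 0.675. Between F1-P and B6-Y the log2 change was −1.96 (SE 0.654, 95% confidence interval −3.47 to −0.44, adjusted p = 0.0800 in limma). It passed in the quasi-likelihood test (adjusted p = 0.0389, 16.1% of all genes called), the likelihood ratio test (0.00122, 19.1%) and DESeq2 (2.9e-05, 19.5%), and its adjusted p reached 0.231 over the alternatives. It also passed in limma without B6-Y replicate 1 (log2 change −2.80), where 1398 of 14380 genes were called. Again that replicate was the only B6-Y sample within the range of F1-P. Summed neutrophil markers were 301 to 1281 CPM in F1-P, and the B6-Y samples with high Prss34 were those at 5441 and 485 CPM. Without the library of the highest neutrophil marker sum in each group, the log2 change was 1.15 for F1-L minus F1-P and −1.37 for F1-P minus B6-Y, neither past the threshold.

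In CMPs both proteases overlapped between the groups. Mcpt8 was at 4.51, 10.5 and 13.6 CPM in F1-P and 11.5, 5.26 and 15.5 in F1-L (log2 change 0.16, 95% confidence interval −1.01 to 1.33, adjusted p = 0.915 in limma). Prss34 was at 1.15, 14.3 and 8.19 CPM in F1-P and 4.36, 1.34 and 7.41 in F1-L (log2 change −0.51, 95% confidence interval −2.45 to 1.44, adjusted p = 0.840). The low sample of each group, F1-P replicate 1 and F1-L replicate 2, was the same for both genes.

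**Figure D3:**
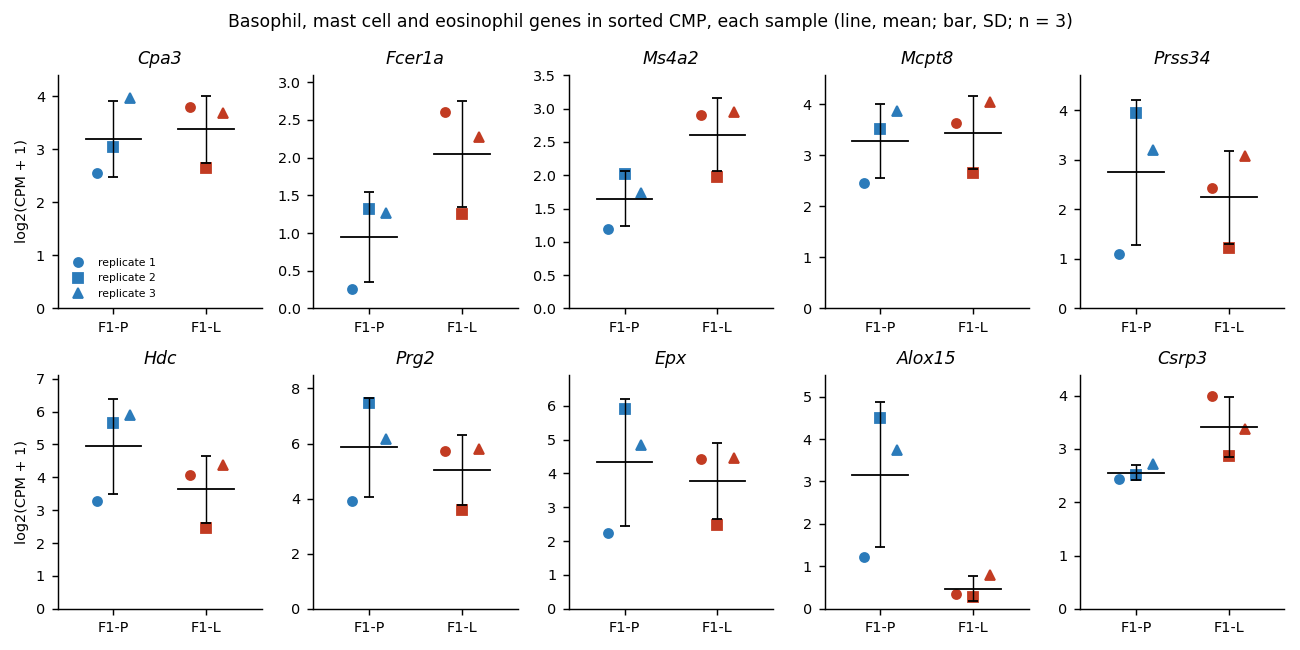
Levels of the 10 genes in CMPs as log2(CPM + 1), with 1 symbol per sample, the shape giving the replicate number, and the mean and SD of each group in black (n = 3). Alox15 lay lower in F1-L (0.206 to 0.746 CPM) than in F1-P (1.34 to 21.6) and Csrp3 higher (6.30 to 14.9 against 4.42 to 5.56), and the other 8 genes overlapped.

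The IgE receptor chains were low in both cell types, and their levels were not tested between LSK and CMPs. Fcer1a (chromosome 1, 173221284 to 173227214, minus strand) was at 1.56, 0.795 and 1.08 CPM in F1-L LSK, 0.371, 0.467 and 0.243 in F1-P, 0.310, 0.776 and 0.963 in B6-Y, and 1.15, 1.33 and 2.27 in B6-O. In both strains the older mice lay above the younger ones without overlap. Fcer1a was too low to be tested between F1-L and F1-P, where the ratio of mean CPM was 3.18 and a fit without a filter gave a log2 change of 0.64 (adjusted p = 0.198 in limma). Between B6-O and B6-Y the log2 change was 0.61 (SE 0.254, adjusted p = 0.737 in limma). Fcer1a passed the filter there through the B6-O samples alone, since all B6-Y samples were below 1 CPM. In CMPs Fcer1a was at 0.192, 1.5 and 1.41 CPM in F1-P and 5.09, 1.39 and 3.83 in F1-L (log2 change 1.10, 95% confidence interval 0.03 to 2.16, adjusted p = 0.502).

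Ms4a2 (chromosome 19, 11615523 to 11623719, minus strand) was at 2.44, 0.994 and 1.39 CPM in F1-L LSK, 0.289, 0.817 and 1.21 in F1-P, 0.961, 2.97 and 1.14 in B6-Y, and 1.52, 0.505 and 1.57 in B6-O, with all groups overlapping. In CMPs it was at 1.30, 3.04 and 2.31 CPM in F1-P and 6.46, 2.94 and 6.72 in F1-L, and the groups overlapped by the smallest F1-L value alone (log2 change 0.96, 95% confidence interval 0.14 to 1.78, adjusted p = 0.473 in limma). The receptor's shared gamma chain is encoded by Fcer1g, which other myeloid cells also use. In CMPs Fcer1g had 88.0, 38.5 and 55.2 reads per read of Fcer1a in F1-P and 4.71, 10.04 and 7.69 in F1-L. These ratios did not overlap, with F1-L at the lower end in all 3 samples. In LSK the ratio ran from 41.4 to 178 in F1-P, F1-L and B6-Y and from 14.1 to 33.5 in B6-O.

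Cpa3 (chromosome 3, 20215620 to 20242181, minus strand) varied least. In LSK it was at 11.8, 8.15 and 9.25 CPM in F1-L, then 12.4, 7.29 and 5.64 in F1-P, 9.55, 9.05 and 10.1 in B6-Y, and 11.98, 9.32 and 11.5 in B6-O. The highest of the 12 samples was 2.21 times the lowest, against 19.0 times for Hdc, 51.9 for Prg2 and 375 for Epx. Its 95% confidence intervals were −0.43 to 0.90 for F1-L minus F1-P, −0.64 to 0.32 for F1-L minus B6-O, −0.84 to 0.39 for F1-P minus B6-Y and −0.26 to 0.60 for B6-O minus B6-Y, so log2 differences beyond 1 in either direction lay outside all 4. In CMPs Cpa3 was at 4.85, 7.28 and 14.6 CPM in F1-P and 12.8, 5.26 and 11.8 in F1-L (log2 change 0.18, 95% confidence interval −0.91 to 1.28, adjusted p = 0.895 in limma).

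Hdc (chromosome 2, 126593667 to 126619299, minus strand) was at 54.1, 13.8 and 13.7 CPM in F1-L LSK, 2.84, 6.71 and 11.4 in F1-P, 5.67, 36.9 and 4.54 in B6-Y, and 10.9, 6.00 and 35.9 in B6-O. F1-L lay above F1-P in every sample, and F1-L, B6-Y and B6-O each had 1 library that stood far above its group. The log2 change of F1-L minus F1-P was 1.68 (SE 0.617, 95% confidence interval 0.22 to 3.13, adjusted p = 0.322 in limma). The high libraries, F1-L replicate 1, B6-Y replicate 2 and B6-O replicate 3, were those with the highest neutrophil marker sums of their groups. Without them and F1-P replicate 3 the log2 change was 1.44 (adjusted p = 0.168). In CMPs Hdc was at 8.74, 49.5 and 58.9 CPM in F1-P, the high pair being the samples with neutrophil marker sums of 6453 and 8442, and at 15.7, 4.54 and 19.8 in F1-L. The log2 change was −1.31 (95% confidence interval −3.28 to 0.66, adjusted p = 0.631) with all samples and 0.35 without F1-P replicates 2 and 3, which leaves 1 sample assumed to vary like the others. The gate excluded CD11b-positive and Gr-1-positive cells, as mature neutrophils are, and the part of neutrophil RNA in these values was not tested.

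**Figure D4:**
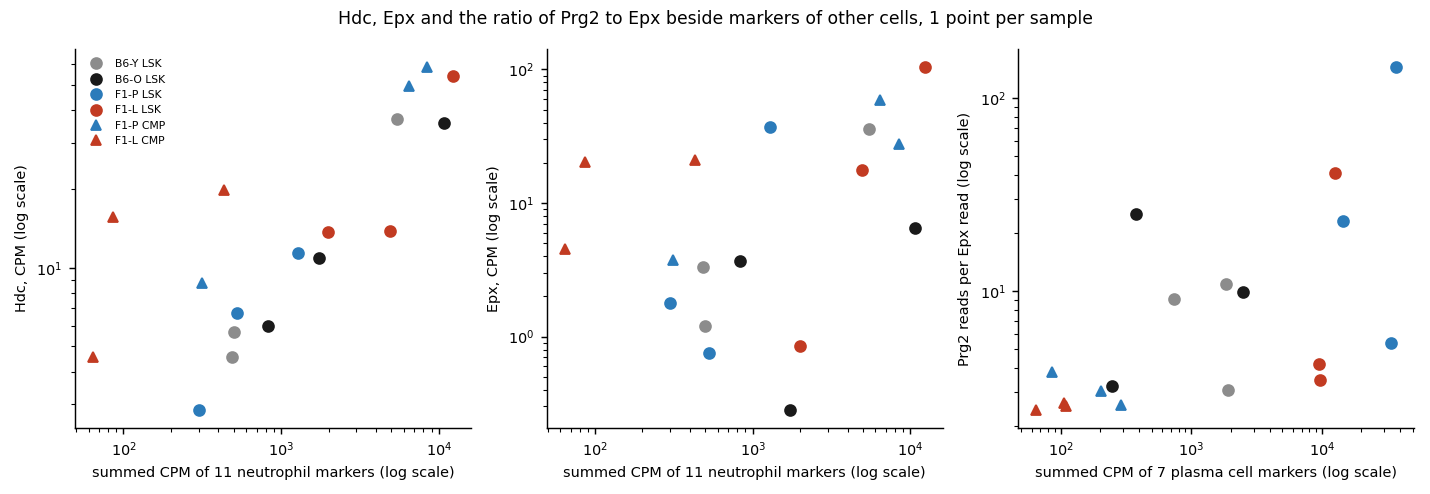
Hdc (left) and Epx (middle), in CPM on log axes, against the summed CPM of 11 neutrophil markers, and reads of Prg2 per read of Epx (right) against the summed CPM of 7 plasma cell markers, with circles for LSK and triangles for CMPs, which were normalised separately. LSK samples with more neutrophil marker RNA had more Hdc, up to 54.1 CPM at a sum of 12373, and the highest ratio of Prg2 to Epx, 146, was that of F1-P replicate 2, which had the highest plasma cell marker sum.

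The eosinophil granule genes Prg2 and Epx varied widely within groups. Prg2 (chromosome 2, 84980461 to 84983632, plus strand) was at 363, 74.0 and 34.8 CPM in F1-L LSK, 41.1, 111 and 201 in F1-P, 10.97, 110.4 and 36.4 in B6-Y, and 7.001, 11.9 and 65.1 in B6-O. Epx (chromosome 11, 87864000 to 87875536, minus strand) was at 105, 17.7 and 0.853 CPM in F1-L, then 1.77, 0.759 and 37.1 in F1-P, 1.21, 35.8 and 3.34 in B6-Y, and 0.280, 3.69 and 6.55 in B6-O. For Epx the highest sample of a group was 23.4 to 123.1 times the lowest, with wide intervals in every comparison. The log2 change of F1-L minus F1-P was 0.01 for Prg2 (95% confidence interval −2.11 to 2.14) and 1.44 for Epx (−2.48 to 5.35). Against B6-O they were 2.39 for Prg2 (95% confidence interval −0.01 to 4.79, adjusted p = 0.184 in limma) and 2.11 for Epx (−1.19 to 5.41, adjusted p = 0.365). For Prg2 the second difference passed when the library with the highest neutrophil marker sum of each group was left out (log2 change 2.35, adjusted p = 0.0147 in limma). That setting was chosen after seeing the data, and limma called 2446 of 14381 genes in it. The libraries left out were also those highest in Prg2 in their groups, at 363 and 65.1 CPM.

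Prg2 and Epx did not keep a fixed proportion in LSK. Reads of Prg2 per read of Epx were 3.46, 4.18 and 40.7 in F1-L, then 23.2, 146 and 5.40 in F1-P, 9.08, 3.08 and 10.9 in B6-Y, and 25.0, 3.22 and 9.93 in B6-O. In CMPs the ratio was 3.79, 3.05 and 2.58 in F1-P and 2.54, 2.41 and 2.63 in F1-L, a narrow range although the level of Epx differed more than 10-fold between samples (3.75 to 58.6 CPM). The LSK samples with an Epx level above 15 CPM had ratios of 3.08 to 5.40, near those of CMPs. The summed CPM of 7 plasma cell markers was 9576 to 37273 in NZBW/F1 LSK, 246 to 2492 in C57BL/6 LSK and 64.9 to 288 in CMPs. It was highest in F1-P replicate 2, the sample with the ratio of 146. The ratio was 25.0 in B6-O replicate 1, where the sum was at most 2492. In F1-L replicates 1 and 2, with sums of at least 9576, it was 3.46 and 4.18. Whether plasma cell RNA contributed to Prg2 was not tested.

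In CMPs Prg2 was at 14.2, 178 and 71.0 CPM in F1-P and 51.6, 10.9 and 55.1 in F1-L (log2 change −0.83, adjusted p = 0.793 in limma). Epx was at 3.75, 58.6 and 27.5 CPM in F1-P and 20.3, 4.54 and 20.9 in F1-L (log2 change −0.55, adjusted p = 0.860). Both differences changed direction without F1-P replicates 2 and 3, to 1.11 for Prg2 and 1.53 for Epx, which leaves 1 F1-P sample.

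Alox15 (chromosome 11, 70344152 to 70352031, minus strand) was read against Epx in both cell types. In LSK it was at 36.4, 5.53 and 0.539 CPM in F1-L, then 0.412, 0.642 and 5.20 in F1-P, 0.279, 6.21 and 0.585 in B6-Y, and 0.591, 0.726 and 1.17 in B6-O, with its highest values in the samples that were highest in Epx in F1-L, F1-P, B6-Y and B6-O alike. Between F1-L and B6-O the log2 change was 1.99 (95% confidence interval −0.40 to 4.38, adjusted p = 0.252 in limma). This difference passed in the likelihood ratio test (adjusted p = 0.00984) and in DESeq2 (0.0174), which together with Csrp3 made 2 of 10 genes against 15.4% and 16.0% of all genes, and its adjusted p ranged up to 0.508 over the alternatives. In CMPs Alox15 was at 1.34, 21.6 and 12.5 CPM in F1-P and 0.273, 0.206 and 0.746 in F1-L. The groups did not overlap, and all 3 F1-L samples were below 1 CPM, on 4 to 15 reads. The log2 change was −2.68 (SE 0.804, 95% confidence interval −4.62 to −0.74, adjusted p = 0.413 in limma), and the mean CPM of F1-L was 0.0346 of that of F1-P. Alox15 passed the filter through the F1-P samples alone, and without any filter its adjusted p was 0.393 in limma. On the filtered genes it passed in the likelihood ratio test (adjusted p = 0.00126, where 2.46% of all genes did) and in DESeq2 (3.8e-05, 2.85%). It also passed in limma without F1-P replicate 1 (log2 change −3.65, adjusted p = 0.00752), where 510 of 12926 genes were called. That replicate was the F1-P sample lowest in Alox15, so leaving it out widens the gap between the groups. Alox15 did not pass in the quasi-likelihood test (adjusted p = 0.314) or in limma with all samples, and its adjusted p reached 0.993 over the alternatives. Without F1-P replicates 2 and 3, which leaves 1 F1-P sample, the log2 change was −0.75. Reads of Epx per read of Alox15 were 2.79, 2.72 and 2.21 in F1-P CMPs and 74.3, 22 and 28.1 in F1-L CMPs, so Alox15 was low in F1-L relative to Epx as well, although both genes varied together within F1-P.

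Whether the difference between older and younger mice differed between the strains was tested in all 12 LSK samples as (F1-L minus F1-P) minus (B6-O minus B6-Y). Of the 10 genes 0 passed in limma, the quasi-likelihood test, the likelihood ratio test or DESeq2. Of all 15084 genes tested, limma and the quasi-likelihood test called 0, the likelihood ratio test 10 and DESeq2 32. The adjusted p of the 10 genes in limma was 0.976 to 0.992. Csrp3 was the 1 gene with an unadjusted p below 0.05 (3.92% of all genes), with an interaction of 0.91 (SE 0.329, 95% confidence interval 0.19 to 1.63).

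How the genes varied together within groups was described by Pearson's r of the deviations of log2(CPM + 1) from the group means, over 12 LSK or 6 CMP samples, without a p since the deviations within a group sum to 0. In LSK Epx and Alox15 had r = 0.94, Ms4a2 had 0.92 with Hdc, and Mcpt8 had 0.88 with Prss34 and 0.86 with Fcer1a. The pairs did not follow the cell types, since Prg2 had 0.88 with Hdc, above its 0.85 with Epx and 0.82 with Alox15, and 0.75 with Mcpt8, while Prss34 had 0.73 with Ms4a2 and 0.65 with Fcer1a. Cpa3 and Csrp3 stood outside, with r of −0.21 to 0.41 for Cpa3 and −0.18 to 0.24 for Csrp3 with the other 9 genes. In CMPs r between Fcer1a, Ms4a2, Mcpt8, Prss34, Hdc, Prg2 and Epx was 0.87 to 0.99 for every pair, and Csrp3 had 0.80 with Fcer1a, 0.75 with Cpa3, 0.69 with Ms4a2 and 0.14 to 0.59 with the others. The mean over 11 neutrophil markers had r = 0.97 with Hdc, 0.89 with Prg2, 0.87 with Ms4a2, −0.08 with Cpa3 and 0.15 with Csrp3 in LSK. The mean over monocyte and macrophage markers had 0.90 with Hdc, 0.84 with Prg2 and 0.84 with Ms4a2. The mean over gate and stem cell markers had 0.83, 0.84 and 0.85 with the same genes. Gate markers take in myeloid genes that the sort selected against, so these values cannot separate stem cell from myeloid RNA. Which cells the likeness came from was not tested. Among the genes most like the mean of the 10 in LSK were Anxa1, Gm9733, Scnn1a and Lyz2 (r = 0.97 to 0.98), of which Lyz2 encodes the lysozyme of neutrophils and macrophages. In CMPs they were Kbtbd2, Lman2, Zc3h12a, Ccrl2 and Rhoh (r = 0.996 to 1.0), where 6 samples in 2 groups leave little room for a gene to differ. Eosinophil ribonuclease Ear6, chosen after its values were seen, was the gene most like Epx (r = 0.978) and Alox15 (0.981) in LSK.

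**Figure D5:**
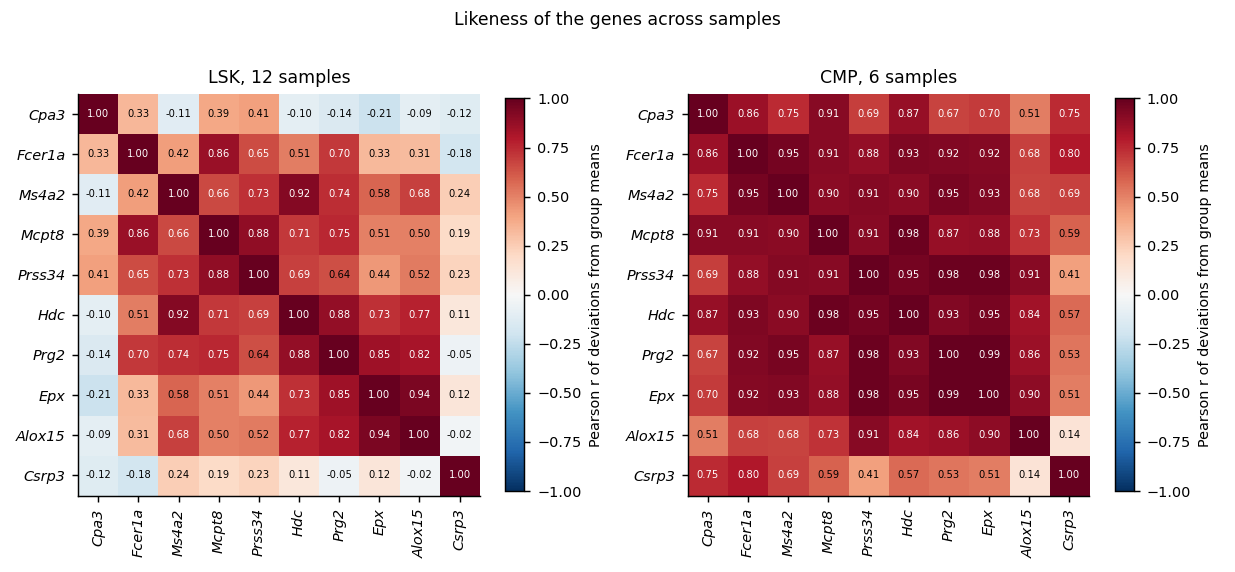
Pearson's r between the 10 genes, from deviations of log2(CPM + 1) from group means, in 12 LSK samples (left) and 6 CMP samples (right), from blue (−1) to red (1). In LSK Epx, Alox15 and Prg2 have r of 0.82 to 0.94 with one another, Prg2 has 0.88 with Hdc, and Cpa3 and Csrp3 have low values throughout (−0.21 to 0.41 and −0.18 to 0.24).

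Other genes of these lineages were read from fixed lists and described by counts beside those over all genes tested. Of all genes tested, limma called 0.0279% in F1-L against F1-P LSK, 11.6% in F1-L against B6-O and 16.2% in F1-P against B6-Y. In B6-O against B6-Y it called 0.0% and in CMPs 0.00774%. Of 10 further eosinophil genes, 0 of 7 tested were called in F1-L against F1-P LSK, with a median log2 change of 0.96 against −0.01 over all genes, and 0 of 6 in F1-L against B6-O (median 1.60 against −0.03). Ear2, an eosinophil ribonuclease, was at 67.7, 12.1 and 5.48 CPM in F1-L LSK and 0.529, 0.411 and 3.81 in B6-O (log2 change 3.05, SE 0.885, adjusted p = 0.0711 in limma). Adgre1, the gene of the F4/80 antigen of macrophages and eosinophils, was at 3.18 to 15.3 CPM in F1-L LSK and 0.660 to 1.80 in F1-P (log2 change 2.08, SE 0.484, adjusted p = 0.189). Siglecf, an inhibitory lectin receptor of eosinophils, fell from 3.41 to 5.45 CPM in B6-Y to 0.525 to 2.33 in F1-P (log2 change −1.37, SE 0.308, adjusted p = 0.0203) and was the 1 of 5 tested genes called there. In CMPs all 5 tested eosinophil genes were lower in F1-L, with a median of −1.54 against 0.04 over all genes, and 0 were called. Ear2 was at 3.84, 37.7 and 22.9 CPM in F1-P CMPs and 1.18, 0.413 and 3.68 in F1-L (log2 change −2.76, SE 0.832, adjusted p = 0.419). Reads of near-identical Ear genes can be split between copies, so the level of a single Ear gene is uncertain.

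Of 12 further basophil genes, 8 were tested in LSK, and 0 were called in F1-L against F1-P. In F1-L against B6-O 2 were called (11.6% of all genes) and in F1-P against B6-Y 2 (16.2%), all higher in NZBW/F1. Cyp11a1, the side-chain cleavage enzyme of steroid synthesis, was at 8.05 to 10.96 CPM in F1-L, 8.05 to 11.2 in F1-P, 2.26 to 3.14 in B6-Y and 1.55 to 2.81 in B6-O. It was higher in F1-L than B6-O (log2 change 1.75, SE 0.223, adjusted p = 0.00335 in limma) and in F1-P than B6-Y (1.49, SE 0.196, adjusted p = 0.00205). Ccr2, a chemokine receptor shared with monocytes, was called in F1-L against B6-O (log2 change 1.88, SE 0.461, adjusted p = 0.0426) and Itga2, the integrin chain of the DX5 antigen of basophils and NK cells, in F1-P against B6-Y (0.76, SE 0.212, adjusted p = 0.0440). Lilrb4a, an inhibitory receptor of myeloid cells, was at 15.0 to 43.1 CPM in F1-L LSK and 2.97 to 6.85 in F1-P (log2 change 1.90, SE 0.447, adjusted p = 0.189). In CMPs Lilrb4a was at 0.310 to 1.79 CPM in F1-L and 2.69 to 41.5 in F1-P (log2 change −3.21, SE 0.941, adjusted p = 0.405), and Cd69, an early activation marker, at 4.32 to 17.1 and 28.9 to 80.5 (−2.60, SE 0.561, adjusted p = 0.353). Of 7 basophil genes tested in CMPs, 0 were called.

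Mast cell proteases were close to 0. Of 18 further genes, 9 were listed in LSK and 5 in CMPs, and the listed proteases of mast cell granules, Tpsb2, Cma1 and Mcpt4, did not exceed 1.11, 1.12 and 0.477 CPM in any LSK sample. Their highest values all fell in F1-L replicates 2 and 3, whereas Mcpt4 had 0 reads in all 3 F1-P and all 3 B6-Y samples. Called mast cell genes numbered 0 of 5 tested in each LSK comparison and 0 of 4 in CMPs. Slc18a2, the vesicular monoamine transporter that loads histamine into granules, was at 152 to 215 CPM in F1-L LSK, 59.5 to 76.0 in F1-P, 86.6 to 96.4 in B6-Y and 135 to 159 in B6-O. Its log2 change was 1.36 for F1-L minus F1-P (SE 0.163, adjusted p = 0.114 in limma) and 0.66 for B6-O minus B6-Y (SE 0.134, adjusted p = 0.261), and −0.47 for F1-P minus B6-Y (SE 0.132, adjusted p = 0.0474), where the fold change stayed under 1.5. Gzmb, the cytotoxic protease granzyme B, was at 1.39 to 5.35 CPM in F1-L and 0.347 to 1.04 in B6-O (log2 change 1.23, SE 0.370, adjusted p = 0.0774).

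The genes of signalling from the IgE receptor were listed in full in both tables. Of 14, 0 were called in F1-L against F1-P LSK (median −0.06 against −0.01 over all genes). In F1-L against B6-O 1 was called (11.6% of all genes) and in F1-P against B6-Y 2 (16.2%). Grap2, an adaptor that T cells also use, was higher in F1-L than B6-O LSK (log2 change 1.35, SE 0.254, adjusted p = 0.0164 in limma) and in F1-P than B6-Y (1.38, SE 0.276, adjusted p = 0.0120). Gab2, the scaffold that couples the receptor to phosphoinositide 3-kinase, was lower in F1-P than B6-Y (18.5 ± 3.93 against 51.4 ± 12.5 CPM, SD, n = 3, log2 change −1.42, SE 0.217, adjusted p = 0.00391). The summed CPM of 8 T and NK cell markers was 140 to 320 in NZBW/F1 LSK and 12.5 to 38.8 in C57BL/6 LSK, and its part in Grap2 was not tested.

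Of 10 receptor genes for the growth factors of these lineages, 0 were called in F1-L against F1-P LSK, 2 higher and 1 lower in F1-L against B6-O (11.6% of all genes called), and 1 higher and 3 lower in F1-P against B6-Y (16.2%). Il5ra, the alpha chain of the receptor for IL-5, the main eosinophil growth factor, was at 19.3, 27.6 and 29.7 CPM in F1-L, then 8.04, 43.5 and 27.4 in F1-P, 2.29, 8.41 and 3.47 in B6-Y, and 1.15, 0.789 and 4.15 in B6-O. It was higher in F1-L than B6-O (log2 change 3.27, SE 0.411, adjusted p = 0.00316 in limma) and in F1-P than B6-Y (2.12, SE 0.604, adjusted p = 0.0484, with the groups overlapping). IL-5 receptor is also carried by B-lineage cells, and F1-P replicate 2 again had the highest value. Csf2rb, the signalling beta chain shared by the receptors for IL-3, IL-5 and GM-CSF, rose in F1-L against B6-O (114 ± 25.4 against 53.1 ± 3.71 CPM, log2 change 1.06, SE 0.178, adjusted p = 0.0102). Its close paralogue Csf2rb2, with which reads may be shared, was lower in F1-P than B6-Y (log2 change −1.29, SE 0.224, adjusted p = 0.00674). Crlf2, the TSLP receptor, was lower in both, by −1.20 (SE 0.192, adjusted p = 0.00864) in F1-L minus B6-O and −1.38 (SE 0.161, adjusted p = 0.00121) in F1-P minus B6-Y. Il4ra was lower in F1-P than B6-Y (log2 change −0.83, SE 0.191, adjusted p = 0.0224). In CMPs 0 of 9 were called, and Kit, the stem cell factor receptor, was at 536 to 668 CPM in F1-L and 416 to 475 in F1-P (log2 change 0.39, SE 0.113, adjusted p = 0.404).

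Of 13 lineage transcription factors, 0 were called in F1-L against F1-P LSK, although 11 had a positive log2 change. In limma 7 of the 13 had an unadjusted p below 0.05 (12.8% of all genes), and the median was 0.35 against −0.01 over all genes. In F1-P against B6-Y 4 were called lower and 1 higher (16.2% of all genes called), with a median of −0.40 against −0.04. Gata2 was at 110, 267 and 202 CPM in F1-L LSK, 70.0, 49.2 and 76.7 in F1-P, 135, 99.9 and 157 in B6-Y, and 228, 210 and 212 in B6-O, so F1-P was the lowest group without overlap. It was lower in F1-P than B6-Y (log2 change −0.99, SE 0.220, adjusted p = 0.0190 in limma), and the log2 change was 1.48 (SE 0.329, adjusted p = 0.177) for F1-L minus F1-P and 0.75 (SE 0.189, adjusted p = 0.354) for B6-O minus B6-Y. In CMPs Gata2 was at 62.2, 61.5 and 64.4 CPM in F1-P and 179, 107 and 129 in F1-L (log2 change 1.10, SE 0.183, adjusted p = 0.352). Cebpa, Spi1 and Irf8, factors of myeloid differentiation, were lower in F1-P than B6-Y LSK by −0.99 (SE 0.248, adjusted p = 0.0306), −0.93 (SE 0.129, adjusted p = 0.00256) and −0.82 (SE 0.139, adjusted p = 0.00604). Cebpe, a factor of granule genes of neutrophils and eosinophils, was at 7.37 to 45.2 CPM in F1-L and 1.15 to 6.32 in F1-P (log2 change 2.53, SE 0.690, adjusted p = 0.210). Bhlhe41, a repressor also known from B cells, was higher in F1-L than B6-O (log2 change 3.55, SE 0.445, adjusted p = 0.00313) and in F1-P than B6-Y (3.87, SE 0.574, adjusted p = 0.00343), and it was at most 1.24 CPM in CMPs.

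Of 13 genes of histamine handling and lipid mediators, 12 were tested in LSK. In F1-L against F1-P 0 were called (median 0.46 against −0.01 over all genes). In F1-L against B6-O 2 were called lower (11.6% of all genes called). In F1-P against B6-Y 4 were called lower (16.2%), with a median of −0.55 against −0.04. Slc22a3, a transporter that takes up histamine, was at 30.2 to 43.3 CPM in F1-L, 20.1 to 29.9 in F1-P, 74.7 to 109 in B6-Y and 90.6 to 150 in B6-O. It was lower in F1-L than B6-O by −1.82 (SE 0.236, adjusted p = 0.00361 in limma) and in F1-P than B6-Y by −1.81 (SE 0.194, adjusted p = 0.000806). Ltc4s, the synthase of leukotriene C4, was lower in F1-L than B6-O (0.933 ± 0.227 against 2.50 ± 0.607 CPM, log2 change −0.85, SE 0.200, adjusted p = 0.0371). Alox5ap, the activating protein of 5-lipoxygenase, Ptgs2, the inducible cyclooxygenase, and Pla2g4a, the phospholipase that frees arachidonic acid, were lower in F1-P than B6-Y, with log2 changes of −1.19 (SE 0.221, adjusted p = 0.00901), −0.82 (SE 0.219, adjusted p = 0.0386) and −0.78 (SE 0.209, adjusted p = 0.0401). Hnmt, which inactivates histamine by methylation, was at 8.58 to 12.01 CPM in F1-L and 2.28 to 6.95 in F1-P (log2 change 1.25, SE 0.340, adjusted p = 0.210). In CMPs 0 of 10 were called, and Ptgs2 was at 5.16 to 14.9 CPM in F1-L and 24.0 to 50.8 in F1-P (log2 change −1.80, SE 0.415, adjusted p = 0.353).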

How the data were processed

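The authors prepared TruSeq libraries, sequenced single-end reads, aligned these to mm10 (STAR 2.6), counted with HTSeq and used edgeR. The strand setting of the counting is not given in the sources used here. The values the authors deposited are a signal, CPM of a scaled library size; 100.0% lay within 0.1 of a whole read, and reads were recovered from these steps. The design had assumed plain CPM. Each column was matched to 1 sample.

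Gene positions and exon lengths are from GENCODE M21 (GRCm38), which matched 19770 LSK and 18421 CMP genes. Tests used limma 3.58.1 (lmFit, eBayes with trend, pseudocount 1) in R 4.3.3, with the samples of each comparison alone, and edgeR 4.0.16 and DESeq2 1.42.0 on recovered reads as alternatives. They were tested on simulated data. Levels, correlations and motifs were computed with numpy 2.4.6 and pandas 2.3.3 under Python 3.11.15, and figures with matplotlib 3.10.9. Intervals and floors on reads cover counting error only.

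The 10 genes, the lists and the alternatives were chosen with earlier results of these data known. Of each list, genes past the thresholds were named, and otherwise up to 3 with the largest change among those with an unadjusted p below 0.05 and no overlap between groups, and the 5 genes most like the mean of the 10 in each table. Of the latter, 1 gene in LSK is not reported here. Marker lists of neutrophils, monocytes and macrophages, B, plasma, T and NK, erythroid, megakaryocyte, stromal and stem cells were summed per sample. No 2 samples of a group differed by as little as sampling noise.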

Additional observations from a re-analysis of the deposited data

How the results depend on the processing

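The rise of Csrp3 in F1-L over B6-O LSK kept its direction and stayed past the threshold under all 17 alternatives that gave a value. Csrp3 passed the filter there through the F1-L samples alone, and most of these alternatives used the same filter. With a mean CPM of at least 5 as the filter it was not tested. The numbers of genes called in limma were 4 in F1-L minus F1-P LSK, 1667 in F1-L minus B6-O, 2331 in F1-P minus B6-Y, 0 in B6-O minus B6-Y, 1 in CMPs and 0 for the interaction. edgeR's likelihood ratio test called 657 in F1-L minus F1-P LSK, 110 in B6-O minus B6-Y, 318 in CMPs and 10 for the interaction, and DESeq2 called 747, 198, 368 and 32. With all 12 LSK samples in one fit 26 genes were called in F1-L minus F1-P and 13 in B6-O minus B6-Y. Scaling by the median of ratios gave 2 in F1-L minus F1-P LSK, and TMM scaling without immunoglobulin genes gave 1 in B6-O minus B6-Y. A mean CPM of at least 5, which tests fewer genes, gave 978 in F1-L minus B6-O and 0 in CMPs. Leaving out the libraries of the highest neutrophil marker levels, an alternative chosen after seeing the data, gave 9 in F1-L minus F1-P LSK, 59 in B6-O minus B6-Y, 0 in CMPs and 1 for the interaction. The cause of these changes was not tested.

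Under that alternative the log2 change turned to −0.12 for Cpa3 and −0.40 for Prg2 in F1-L minus F1-P LSK, to 1.14 for Prss34, 0.35 for Hdc, 1.11 for Prg2 and 1.53 for Epx in CMPs, and to −0.22 for Cpa3 and −0.035 for Fcer1a in the interaction. The CMP values rest on 1 F1-P sample. Prg2 in F1-L minus F1-P LSK, at 0.01, became −0.00019 with the median of ratios and −0.010 with TMM scaling without immunoglobulin genes, and Epx in F1-P minus B6-Y became 0.0076 in DESeq2. None of these values passed the threshold.

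Leaving out 1 replicate at a time moved the number of genes called over 0 to 25 in F1-L minus F1-P LSK, 907 to 2393 in F1-L minus B6-O, 1346 to 2704 in F1-P minus B6-Y, 0 to 45 in B6-O minus B6-Y, 0 to 510 in CMPs and 0 to 1 for the interaction. Directions turned in F1-L minus F1-P LSK for Prg2 (−0.92 to 0.75), and in F1-L minus B6-O for Mcpt8 (−0.11 to 0.85), Prss34 (−0.70 to 1.28) and Ms4a2 (−0.0034 to 0.42). They turned in F1-P minus B6-Y for Epx (−1.68 to 0.88), Cpa3 (−0.51 to 0.00017) and Hdc (−1.15 to 0.24), and in B6-O minus B6-Y for Ms4a2 (−0.45 to 0.063), Epx (−1.82 to 0.20), Hdc (−0.30 to 1.26), Mcpt8 (−0.78 to 0.17) and Prss34 (−1.47 to 0.58). They turned in CMPs for Cpa3 (−0.14 to 0.57), Mcpt8 (−0.25 to 0.56), Prss34 (−1.33 to 0.089) and Epx (−1.59 to 0.24), and in the interaction for Cpa3 (−0.16 to 0.35) and Fcer1a (−0.10 to 0.21).

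With the replicate number as a block, 0 genes were called in F1-L minus F1-P LSK, 1380 in F1-L minus B6-O, 2787 in F1-P minus B6-Y and 0 in CMPs, and the call of none of the 10 genes changed (Csrp3 in F1-L minus B6-O, adjusted p = 0.0242 in limma). The labels do not say whether the numbers pair samples, and correlations of same-numbered samples ran from −0.45 to 0.62. In F1-P minus B6-Y and in B6-O minus B6-Y, 2 numbers each had samples that correlated best with their own. An effect shared by samples of the same number was not tested further. Depth limits the IgE receptor chains and, in LSK, Csrp3, which were read from as few as 3 to 7 reads in a sample.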

Other observations

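The summed CPM of 10 monocyte and macrophage markers was 678 to 1852 in F1-L LSK, 145 to 356 in F1-P, 271 to 794 in B6-Y and 266 to 1239 in B6-O, and in CMPs 172 to 461 in F1-L and 214 to 1872 in F1-P. The sum of 7 B cell markers was 153 to 192 CPM in F1-L LSK, 291 to 416 in F1-P, 175 to 419 in B6-Y and 52.6 to 108 in B6-O, and up to 165 in CMPs. Megakaryocyte markers summed to 189 to 422 CPM in F1-L LSK and 101.3 to 153 in F1-P, erythroid markers to 290 to 365 and 93.0 to 2915, and stromal markers to 39.5 to 89.5 and 19.7 to 75.8. No marker of these lists that the tables hold was at 0 in every sample of a group.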
